A study of Solanum lycopersicum with 12 samples.

Results

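The response of tomato leaves to drought alone was described by comparing the drought group (D) with the untreated control (C) 2 d (48 h) after the stimulus, in 6 of the 12 RNA libraries of the study, over the 22157 of 34075 genes whose counts passed a filter on low values. All plants were 3-week-old seedlings of the dwarf cultivar Micro Tom grown in a climate chamber. The 3 D libraries came from leaves of plants irrigated with 10 ml of a 20% solution of polyethylene glycol (PEG) 6000, and the 3 C libraries from plants that received neither stimulus. The other 2 groups, used here only where named, received ultrasound (US, 30 kHz and 120 W for 5 min at 6 cm) or ultrasound together with PEG (US + D), each in 3 libraries. PEG lowers the water potential around the roots, so D is an osmotic model of drought and not a soil that dried out.

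When roots lose access to water, abscisic acid (ABA) accumulates in the leaves, binds PYL receptors and blocks type 2C protein phosphatases (PP2C), which frees kinases and transcription factors that close stomata and switch on protective genes. Those genes include late embryogenesis abundant (LEA) proteins, first known from drying seeds, and proteins that coat lipid droplets, carry water, make compatible sugars, remove peroxides or build the cuticle. Growth, cell division and photosynthesis are usually restrained at the same time.

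Total counts ranged from 44837873 to 106829565 in C and from 37905900 to 41748213 in D, so C replicates 2 and 3 were sequenced more deeply than every D library. A count of 0 allows up to 3 counts, i.e., between 0.0275 and 0.0868 CPM (counts scaled to library size) in these libraries, and these limits cover counting error only. The D libraries resembled each other (correlations of log2 CPM from 0.967 to 0.977) more than the C libraries did (0.875 to 0.940), and C replicate 3 stood apart. Among 19053 genes with a mean of at least 1 CPM, 526 were more than 3 times as high in C replicate 3 as in both other C libraries and 572 were under both by the same ratio, against 6 and 31 in D replicate 1. C replicate 2 was above both other C libraries for 729 genes. The median coefficient of variation was 22.5% in C and 13.7% in D. Where leaving out 1 library moved the fold change given for a gene by over 1.5 times, the value without that library is given beside it. Because leaves were sequenced whole, fewer cells of a type and less RNA per cell cannot be told apart. No mesophyll marker carried a name in the sources, so the leaf label was not checked by markers. The summed level of 6 phloem and vascular genes was between 9.76 and 13.7 CPM in C and between 18.8 and 26.6 CPM in D. These genes did not move together. At an unadjusted edgeR p under 0.05, 2 sugar exporters named SWEET were higher in D and 1 gene was lower (log2 fold change -3.68). The other 3 had a larger p. The only stomatal lineage gene, epidermal patterning factor-like 8, had 5.99, 3.82 and 4.09 CPM in C and 2.09, 2.46 and 2.53 in D. The part of either cell type in the results was not tested.

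**Figure D1:**
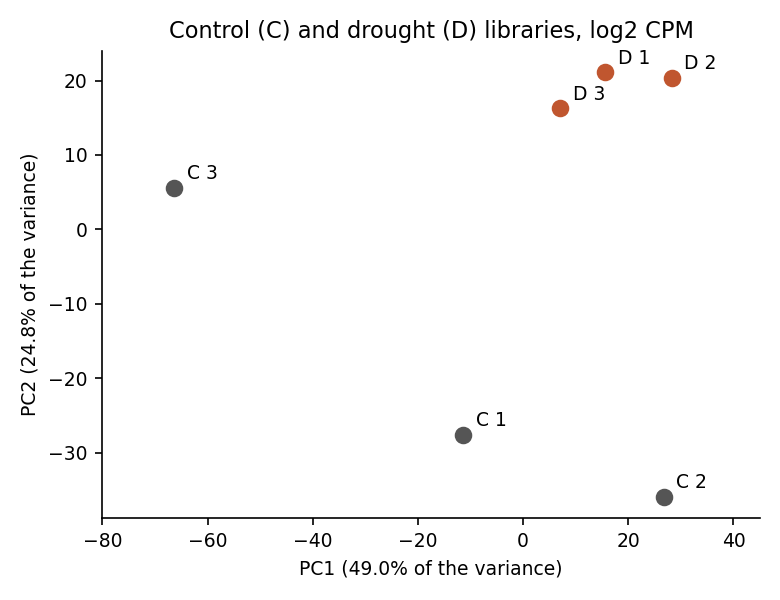
First (horizontal) and second (vertical) principal component of the log2 CPM of the 3 control (C) and 3 drought (D) libraries, 1 point per library. The D libraries lie between 16.3 and 21.2 on the second component, while the first, with 49.0% of the variance, sets C replicate 3 (-66.4) apart from the others.

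At the thresholds of the study (adjusted p under 0.05 and log2 fold change beyond 0.58), edgeR's quasi-likelihood test called 1 differentially expressed gene (DEG) between D and C, i.e., 0.00451% of the genes tested. The next smallest adjusted p was 0.139. The study itself applied these thresholds with DESeq2 and not with edgeR, and the DESeq2 calls made here are given below. At an unadjusted p under 0.05 stood 2458 genes (11.1%), of which 1108 (5.00%) were higher and 1350 (6.09%) lower in D. The D and C libraries did not overlap for 4330 genes (19.5%), 2029 of them higher in D (9.16%) and 2301 lower (10.4%). The median log2 fold change of all genes was -0.05.

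The number of DEGs depended on the tool. DESeq2 called 424 genes (1.86% of the 22738 with an adjusted p), 228 higher and 196 lower, and limma voom with quality weights called 224 (1.01%), of which 174 were also DEGs in DESeq2. With the replicate number as a block, edgeR called 2 genes, the second being cyclic nucleotide-gated ion channel 4 (adjusted p = 0.0356). A fit of the C and D libraries alone called 4 other genes, all higher in D, i.e., a cytokinin riboside 5'-monophosphate phosphoribohydrolase, tonoplast intrinsic protein 3.2, Terminal flower 1 and a retrotransposon polyprotein (Solyc05g026245.1.1). The polyprotein lies outside the rule for named genes and was named after its values were seen.

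A core of 69 genes (0.303%) was called by DESeq2 with all libraries and again in all 6 fits with 1 C or D library removed. Of these, 43 were higher and 26 lower in D, 68 had libraries that did not overlap, and 56 were also DEGs in voom. Without C replicate 3, DESeq2 called 402 genes higher and 153 lower. Without D replicate 2 it called 51 and 50.

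**Figure D2:**
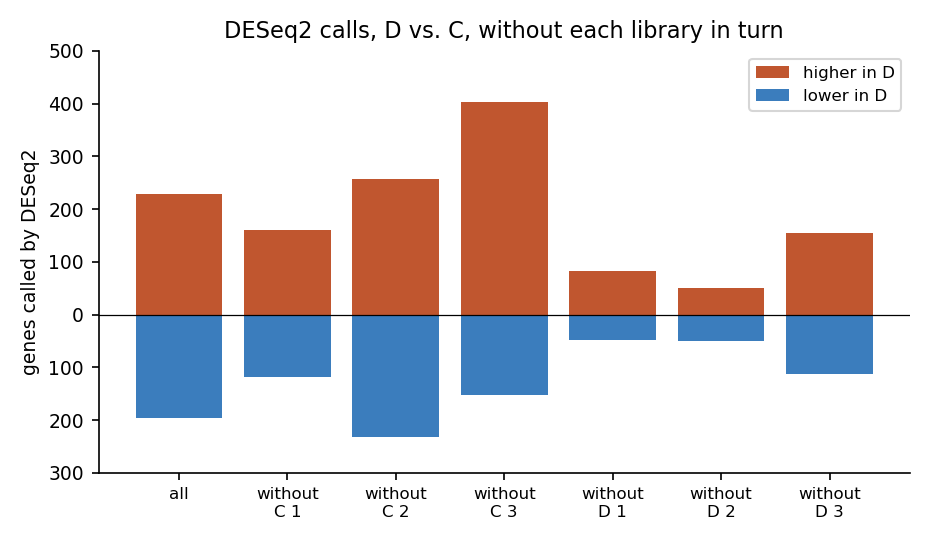
Number of genes called by DESeq2 between D and C (vertical axis, higher in D upwards, lower downwards) with all libraries and without each C or D library in turn. The total falls from 424 to 101 without D replicate 2 and reaches 555 without C replicate 3.

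The single DEG encoded a CASP-like protein (Solyc11g012590.3.1, SL4.0 chromosome 11, 5442506 to 5445622, plus strand), a small membrane protein related to those that scaffold the Casparian strip in Arabidopsis roots. Its CPM was 29.6, 23.5 and 26 in C replicates 1 to 3 and 139, 121 and 97.3 in D replicates 1 to 3. Every D library was at least 3 times as high as every C library. The gene rose 4.53-fold, with a log2 fold change of 2.18 ± 0.22 (SE) and an adjusted p of 0.0252 in edgeR. Over the alternatives the adjusted p ranged from 1.77e-16 to 0.187, and it was 0.0605 in the fit of the C and D libraries alone, where the gene was not called. Among the 6 edgeR fits without 1 library, the call was kept only without D replicate 3.

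The study's list of its own DEGs and differentially methylated genes is the source of gene names here, and it annotates 1191 of the tested genes (5.38%). Lists built from those names contain genes picked on these samples, so their counts describe the genes and are not independent evidence of a direction. Of the 1191 genes, 349 had an unadjusted p under 0.05 and were higher in D and 370 were lower. The libraries of 396 did not overlap and were higher in D, and those of 368 were lower. The counts of list members given below are to be read beside these shares. Apart from the CASP-like gene, no gene named below passed the adjusted edgeR test, and differences are given as values.

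**Figure D3:**
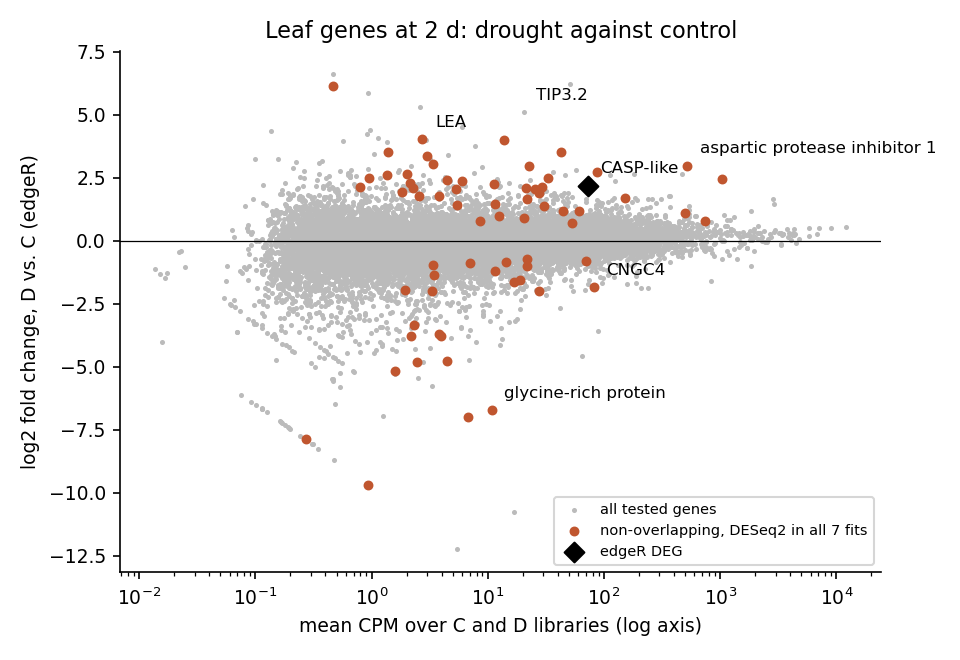
Log2 fold change between D and C from edgeR (vertical) against the mean CPM over both groups (horizontal, log axis), 1 point per tested gene. Red points are the genes called by DESeq2 in all 7 fits whose libraries do not overlap, and the black diamond is the CASP-like gene at 2.18.

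The list that holds the CASP-like gene had members in both directions. In the list for Casparian strip, suberin, cutin and wax, 10 of 22 members had an unadjusted p under 0.05 and were higher in D, 7 were lower and 5 had a larger p (median log2 fold change 0.21). Lipid-transfer proteins, which carry lipid monomers to the cell wall, made up much of the higher side. A non-specific lipid-transfer protein (Solyc08g067510.1.1) had 6.19, 16.9 and 6.7 CPM in the C replicates and 61, 62 and 46.2 in the D replicates. The groups lay apart, and D was 5.67-fold higher (log2 2.5 ± 0.48 and 3.13 without C replicate 2, edgeR adjusted p = 0.217, alternatives 1.12e-08 to 0.698). Another member (Solyc03g119210.1.1) had 12.4, 22.5 and 15.8 CPM in C against 46.5, 46 and 39.5 in D, with a log2 fold change of 1.38 ± 0.21. One more (Solyc06g069070.1.1) had 9.48, 10.4 and 11.9 in C and 31, 32.1 and 35.8 in D (1.64 ± 0.27). All 3 were called by DESeq2 in every fit. The GDSL esterases, a family that includes cutin-forming enzymes, gave both directions at an unadjusted p under 0.05, with 3 members higher (Solyc01g079160.4.1 at 2.12, Solyc07g049440.3.1 at 1.41 and Solyc06g071510.3.1 at 0.54) and 2 lower (Solyc02g071620.3.1 at -1.54 and Solyc11g066700.2.1, with 0.17, 0.0824 and 1.2 CPM in C and 0 counts in every D library). All 5 GDSL genes of the list are given, chosen after their values were seen. Of the 5 other CASP-like genes, 3 had an unadjusted p under 0.05 and were lower and 2 had a larger p. One of the 3, Solyc02g069730.3.1, also singled out after its values were seen, had 0.34, 0.183 and 2.27 CPM in C, where C replicate 3 was high, and 1 or 2 counts in each D library, too few for a fold.

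LEA proteins, which shield other proteins and membranes as cells dry, had the highest median of the lists described here. Of 9 members, 7 had an unadjusted p under 0.05 and were higher in D, none was lower at that level, and the median log2 fold change was 2.92 (3.83 without C replicate 3) against -0.05 for all genes. The summed level of the list was between 22.2 and 43.9 CPM in the C libraries and between 108 and 162 CPM in the D libraries. LEA gene Solyc02g085150.4.1 (SL4.0 chromosome 2, 46149668 to 46152976) had 0.276, 0.384 and 0.285 CPM in C and 7.54, 3.7 and 4.26 in D. The D libraries were high in all 3 replicates, and the log2 fold change was 4.02 ± 0.53 (edgeR adjusted p = 0.139, alternatives 2.70e-12 to 0.599). LEA protein D-29 (Solyc12g098900.2.1) had 8.16, 3.08 and 9.61 CPM in C and 101, 72.8 and 62.9 in D, 11.4-fold higher. LEA protein D-34 (Solyc09g082100.3.1) was near the floor in C, with 0.128, 0.0183 and 0.123 CPM, and reached 1.63, 2.89 and 1.01 in D (log2 4.37 ± 1.04). The remaining 4 of the 7 lay between 1.14 and 3.98. For the 11 kDa LEA protein (Solyc10g078770.2.1), C replicate 3 was high among the C libraries, at 0.0425, 0.064 and 0.911 CPM, and the value was 6.60 without it. LEA gene Solyc02g077970.4.1, the median member, had 0.744, 0.567 and 4.92 CPM in C and 16.2, 18 and 13.3 in D, at 2.92 and 4.61 without C replicate 3. The abscisic acid stress ripening gene ASR3 (Solyc04g071590.3.1) was lower instead, with 0.361, 0.0915 and 0.418 CPM in C and 0.0774, 0 and 0.0723 in D, each at or under 3 counts.

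Other genes best known from seeds also had higher values in D. Of the 8 annotated seed markers, 6 had an unadjusted p under 0.05 and were higher in D. One of them, a lipid-transfer family protein (Solyc08g078870.3.1), had 72.9, 62.5 and 12.3 CPM in C and 308, 422 and 201 in D and made up 68.2 to 85.2% of the summed level of the markers in D, which was between 31.4 and 91.9 CPM in C and between 296 and 496 CPM in D. Without it the sum of the other 7 was between 17.7 and 19.1 CPM in C and between 73.5 and 94 CPM in D. No marker was at 0 in every library of a group, 3 of the 8 are oleosins and 3 are lipid-transfer proteins matched by family name, and the part of seed-type expression in the LEA values was not tested. A vicilin-like protein, of a family that stores nitrogen in seeds (Solyc02g085590.4.1), had 0.468, 0.796 and 0.332 CPM in C and 5.83, 5.04 and 5.54 in D (3.35 ± 0.74). For 2 of 3 oleosins, which coat lipid droplets, an unadjusted p under 0.05 came with log2 fold changes of 1.81 and 2.69, and the calcium-binding caleosin (Solyc04g007960.4.1) had 11.9, 10 and 16.7 CPM in C and 25.3, 27.4 and 25.4 in D (1.02).

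Aquaporins, the water channels of plant membranes, gave values in both directions. Tonoplast intrinsic protein 3.2 (TIP, Solyc03g019820.3.1, SL4.0 chromosome 3, 55819202 to 55820542), a vacuolar channel of a seed-type class, had 1.55, 1.08 and 0.845 CPM in C and 47, 29.3 and 42.2 in D. All 3 D libraries were far above all C libraries (5.1 ± 1.44, edgeR adjusted p = 0.293, alternatives 0.00568 to 0.698). Its relative TIP2.2 (Solyc03g120470.4.1) had the opposite direction, with 397, 292 and 246 CPM in C and 146, 117 and 164 in D (-1.13 ± 0.26). Plasma membrane intrinsic protein 1.5 (Solyc08g081190.3.1), which carries water across the outer membrane, had 918, 890 and 1194 CPM in C and 673, 782 and 693 in D (-0.48).

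**Figure D4:**
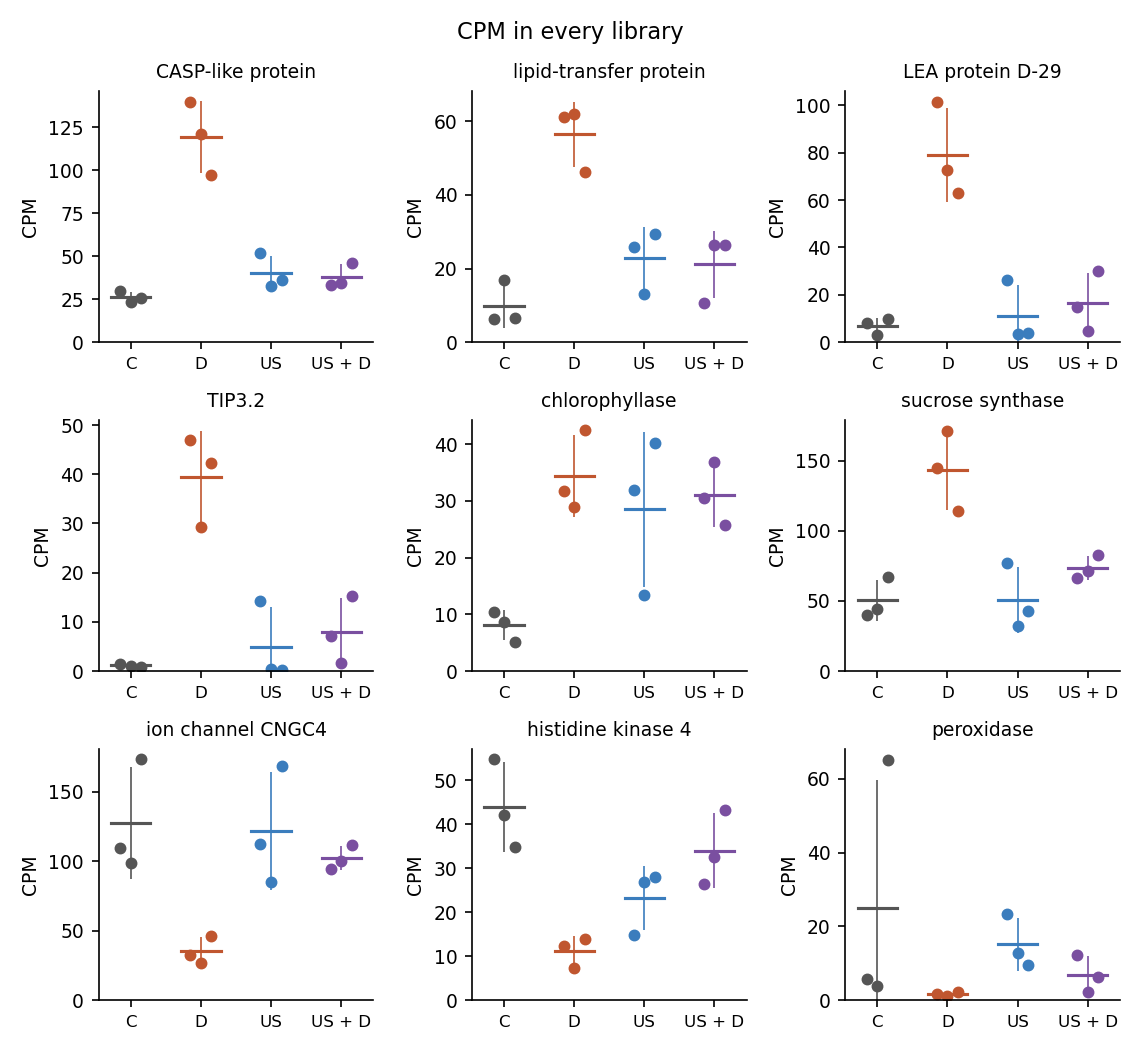
CPM (vertical, from 0) of 9 genes in every library of C, D, US and US + D, with the group mean (horizontal line) and SD (vertical line) of 3 libraries. The CASP-like gene, at 97.3 to 139 CPM in D and 23.5 to 29.6 in C, is separated in all replicates, while the C mean of the peroxidase rests on C replicate 3.

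Genes of the ABA pathway gave values in both directions. Of 8 annotated receptors and PP2C genes, 2 had an unadjusted p under 0.05 and were higher, 1 was lower and 5 had a larger p (median -0.11). Under that p stood 11.1% of all tested genes. Of the 1191 annotated genes, from which the list was drawn, 349 were higher and 370 lower under it. The 2 higher genes, also the only 2 that DESeq2 called, were PP2C genes, Solyc06g076400.3.1 with 99.4, 90.1 and 122 CPM in C and 225, 228 and 144 in D (0.94), and Solyc03g007230.4.1 at 1.71. Receptor PYL5 (Solyc10g085310.1.1) had 9.61, 7.36 and 9.04 CPM in C and 2.27, 4.08 and 5.11 in D (-1.18 ± 0.36). Early responsive to dehydration 15 (Solyc10g079820.2.1), singled out after its values were seen, had 592, 485 and 565 CPM in C and 997, 874 and 937 in D (0.77 ± 0.19) and was called by DESeq2 in every fit.

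Transcription factors had values in both directions. Of 22 NAC, WRKY, HD-Zip and bHLH genes, 8 had an unadjusted p under 0.05 and were higher and 8 were lower. The homeodomain-leucine zipper genes HOX6 (Solyc08g083130.4.1, 21, 8 and 14.3 CPM in C and 138, 94.5 and 67.8 in D) and ATHB-21 (Solyc02g085630.3.1) had the highest values of the list, at 2.8 and 2.84 (4.14 for ATHB-21 without C replicate 2). MYB68 (Solyc12g005640.2.1) had 2.04, 2.55 and 1.67 CPM in C and 10.9, 21.5 and 7.42 in D (2.67). MYB71 (Solyc05g053150.2.1), the MYB gene that the study followed later under another MYB name, had 0 counts in every D library and 0.085, 0.0549 and 2.69 CPM in C. Its D level was at least 12-fold lower with the floor of 3 counts per library, but without C replicate 3 the bound was 0.887, which allows no fold. Of 5 heat shock genes 4 were higher at an unadjusted p under 0.05, including heat shock transcription factors Solyc07g040680.3.1 (22.2, 14.3 and 15.6 CPM in C and 75.3, 59.7 and 42.9 in D) and Solyc08g062960.4.1, at 1.77 and 1.52 (the latter 2.14 without C replicate 3). A 70 kDa heat shock protein (Solyc01g106260.3.1), a chaperone, was the exception at -0.68.

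Some genes of sugar metabolism gave higher values in D, and others did not. Sucrose synthase (Solyc09g098590.4.1), which splits sucrose, had 40, 44.6 and 67.2 CPM in C and 145, 171 and 114 in D (1.5 ± 0.32). Stachyose synthase (Solyc01g079300.4.1), of the raffinose family pathway, had 0.744, 0.576 and 1.31 CPM in C and 5.81, 2.26 and 3.59 in D (2.14). Sucrose phosphate synthase (Solyc09g092130.3.1) had 7.69, 47.3 and 7.64 CPM in D against 4.23, 5.63 and 3.96 in C. Its value of 2.18 rested on D replicate 2 and was 0.73 without it. Beta-amylase (Solyc08g077530.3.1), which releases maltose from starch and was singled out after its values were seen, had 50.8, 30 and 31.4 CPM in C and 83, 83.9 and 89.9 in D (1.19 ± 0.24). The sugar exporters named SWEET, which belong to the phloem and vascular markers and not to the sugar list, reached 1.49 (Solyc01g099880.4.1) and 1.15 (Solyc06g072630.4.1). Among the 7 members of the sugar list, which does not hold beta-amylase, 3 had an unadjusted p under 0.05 and were higher. At that level 1 trehalose-6-phosphate synthase was lower (-0.41), and 3 members had a larger p.

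Peroxide-handling enzymes gave values in both directions. Glutathione peroxidase (Solyc08g006720.4.1), which reduces peroxides inside the cell and was the only annotated member of its list, had 114, 143 and 133 CPM in C and 226, 326 and 258 in D (1.05 ± 0.28). Class III peroxidases, secreted enzymes of the cell wall, were lower in D in 5 of 5 members with libraries that did not overlap, 4 of them with an unadjusted p under 0.05. Libraries did not overlap and were lower in D for 368 of the 1191 annotated genes and for 10.4% of all tested genes. The median of the peroxidase list was -4.0, or -3.91 with the member at or under 3 counts in D set to its bound. These sizes rested on C replicate 3, and the median was -2.47 without it. Peroxidase Solyc06g050440.3.1 had 5.7, 3.95 and 65 CPM in C and 1.57, 1.19 and 2.19 in D, with a log2 fold change of -3.91 and of -1.53 without C replicate 3. Peroxidase Solyc05g052280.3.1 had 12.6, 2.65 and 57 CPM in C and 1.11, 0.955 and 2 in D, at -4.15 and -2.47 without that library. A laccase (Solyc06g050530.3.1), which oxidises lignin precursors, had the same pattern, with 0.425, 0.531 and 4.57 CPM in C and 0, 0.289 and 0.145 in D, at -3.68, -1.71 without C replicate 3 and -4.62 without D replicate 2.

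All 6 annotated genes of chlorophyll breakdown and senescence were higher in D, with libraries that did not overlap and an unadjusted p under 0.05 each (median 1.26). Libraries did not overlap and were higher in D for 396 of the 1191 annotated genes and for 9.16% of all tested genes. Chlorophyllase (CHL, Solyc09g065620.3.1), which removes the phytol tail of chlorophyll, had 10.5, 8.68 and 5.17 CPM in C and 31.8, 28.9 and 42.5 in D. Its log2 fold change was 2.09 ± 0.39 (edgeR adjusted p = 0.217, alternatives 0.000154 to 0.675). Pheophytinase (Solyc10g049560.3.1), which acts on pheophytin, had 0.872, 0.759 and 1.21 CPM in C and 2.27, 2.26 and 1.81 in D (1.16). A senescence regulator with a DUF584 domain (Solyc02g080580.1.1) had 1.36, 0.888 and 1.2 CPM in C and 4.39, 4.14 and 3.4 in D (1.79 ± 0.26) and was called by DESeq2 in every fit. The other 3 lay between 0.52 and 1.29.

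Of 5 genes in the clock list, matched by annotation text and sampled at a single time, 3 had an unadjusted p under 0.05 and were higher in D. At that level 1 was lower. EARLY FLOWERING 4 (Solyc06g051680.1.1), a part of the evening complex in Arabidopsis, had 0.213, 0.256 and 0.38 CPM in C and 1.52, 1.71 and 1.59 in D (2.49 ± 0.46). The pseudo-response regulator APRR5 (Solyc03g115770.3.1) had 6.44, 4.45 and 7.57 CPM in C and 19.1, 17 and 14 in D (1.44 ± 0.28), and APRR9 was at 0.99. CONSTANS interacting protein 5 (Solyc03g111050.3.1) was lower, with 26.4, 30.7 and 30.2 CPM in C and 13.9, 14.4 and 15.2 in D (-1.01 ± 0.16). Its annotation names a partner of CONSTANS and not a part of the clock. Terminal flower 1 (Solyc03g026050.3.1), named after an Arabidopsis repressor of flowering, had 1.42, 1.43 and 2.01 CPM in C and 33.8, 22.9 and 21.9 in D (4.01 ± 0.86). The hour of sampling per library is not given in the sources used here, and its part in these values was not tested.

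Jasmonate and wound genes gave values in both directions. Of 14 such genes, 5 had an unadjusted p under 0.05 and were higher, 2 were lower and 7 had a larger p (median 1.71). The libraries of 7 did not overlap and were higher in D, and those of 2 were lower. DESeq2 called 2 members higher and 2 lower. Among the 1191 annotated genes, from which the list was drawn, 349 were higher and 370 lower at that p. The libraries of 396 annotated genes did not overlap and were higher in D, and those of 368 were lower. Prosystemin (Solyc05g051750.3.1), the precursor of the tomato wound peptide systemin, had 145, 94.2 and 83.5 CPM in C and 208, 191 and 233 in D (0.97 ± 0.23). Aspartic protease inhibitor 1 (Solyc03g098780.2.1), which is outside this list, had 74.3, 96.5 and 180 CPM in C and 560, 1200 and 1007 in D, 7.88-fold higher. Polyphenol oxidase (Solyc08g074620.3.1), which browns wounded tissue, was lower instead, with 6.8, 14.9 and 0.626 CPM in C and 0.568, 0.434 and 0.602 in D (-3.79 ± 0.93, and -2.78 without C replicate 2), where C replicate 3 lay close to the D libraries. Allene oxide synthase (Solyc11g069800.1.1), an enzyme of jasmonate synthesis, was at -0.48. Of 5 pathogenesis-related proteins, 3 had an unadjusted p under 0.05 and were lower and none was higher at that level (median -0.88). Their log2 fold changes ranged from -4.78 to 1.72. The D and C libraries of 1 member did not overlap and were higher in D, those of 1 were lower, and those of 3 overlapped. The member STH-2 (Solyc09g091000.4.1) had 13.8, 0.924 and 11 CPM in C and 0.465, 0.174 and 0.289 in D. Defensin-like protein 1 (Solyc07g009230.3.1), which is outside that list, had 4.4, 3.34 and 13.6 CPM in C and 0.49, 0.463 and 0.675 in D. Both were called by DESeq2 in every fit, at -4.78 and -3.7, the latter -2.81 without C replicate 3.

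Ethylene genes were mixed. The ethylene precursor enzyme ACS2 (Solyc01g095080.3.1) had 1.19, 0.101 and 0.332 CPM in C and 0 counts in every D library, at least 6.86-fold lower in D, and at least 2.75-fold lower without C replicate 1. Ethylene-responsive factor Solyc08g082210.4.1 had 2.81, 3.95 and 2.06 CPM in C and 7.72, 7.18 and 8.91 in D (1.43 ± 0.25), and factor Solyc06g066540.1.1 had 0.702, 2.75 and 2.37 and 11.7, 11.5 and 7.2 (2.38 ± 0.5). Ethylene responsive factor E.2 (EREB, Solyc09g089930.3.1) was lower, with 28.1, 18.8 and 32.1 CPM in C and 12.8, 10.6 and 8.96 in D (-1.29 ± 0.41). Of 15 members, 2 had an unadjusted p under 0.05 and were higher and 5 were lower.

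The 2 cytokinin genes described here differed in direction. Histidine kinase 4 (Solyc04g008110.3.1), whose Arabidopsis namesake is a cytokinin receptor, had 54.9, 42.1 and 34.8 CPM in C and 12.3, 7.38 and 13.9 in D. It was 3.93-fold lower (-1.97 ± 0.32, edgeR adjusted p = 0.151, alternatives 1.34e-05 to 0.637). The phosphoribohydrolase that frees active cytokinin (Solyc04g081290.3.1), singled out after its values were seen, had 10.5, 11.5 and 10.6 CPM in C and 46.6, 50.1 and 45.7 in D (2.13 ± 0.35).

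DNA replication genes gave lower values, and cell cycle and wall genes gave both directions. Expansin 1 (Solyc06g051800.3.1), which loosens cell walls, had 4.72, 3.69 and 7.48 CPM in C and 1.7, 1.1 and 1.2 in D (-1.98 ± 0.36). The G1/S-specific cyclin E (Solyc07g049350.3.1), whose gene model overlaps another, had 38, 26.8 and 37 CPM in C and 16.9, 16.6 and 20.4 in D (-0.92). Cyclin-dependent kinase E-1 (Solyc12g027850.3.1) was higher instead, with 23.7, 20 and 22.8 CPM in C and 34.1, 33.4 and 31.7 in D (0.58), and the other 2 cyclin and kinase genes had a larger p. DNA polymerase epsilon (Solyc11g067140.2.1), the leading-strand replicase, had 8.99, 9.87 and 8.83 CPM in C and 4.75, 5.3 and 5.06 in D (-0.87 ± 0.22), and all 3 DNA replication genes were lower at an unadjusted p under 0.05. Of 8 expansins and xyloglucan enzymes, 2 were higher and 3 lower at that level. Wall genes on the higher side were 3 COBRA-like genes, of which Solyc02g089130.4.1 (1.29) and Solyc02g089120.4.1 (1.16) overlap another gene model and may share reads, and a pectate lyase (Solyc06g036555.1.1), with 0, 0.0274 and 0 CPM in C and 0.465, 1.27 and 1.01 in D, where C held 3 counts in all.

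**Figure D5:**
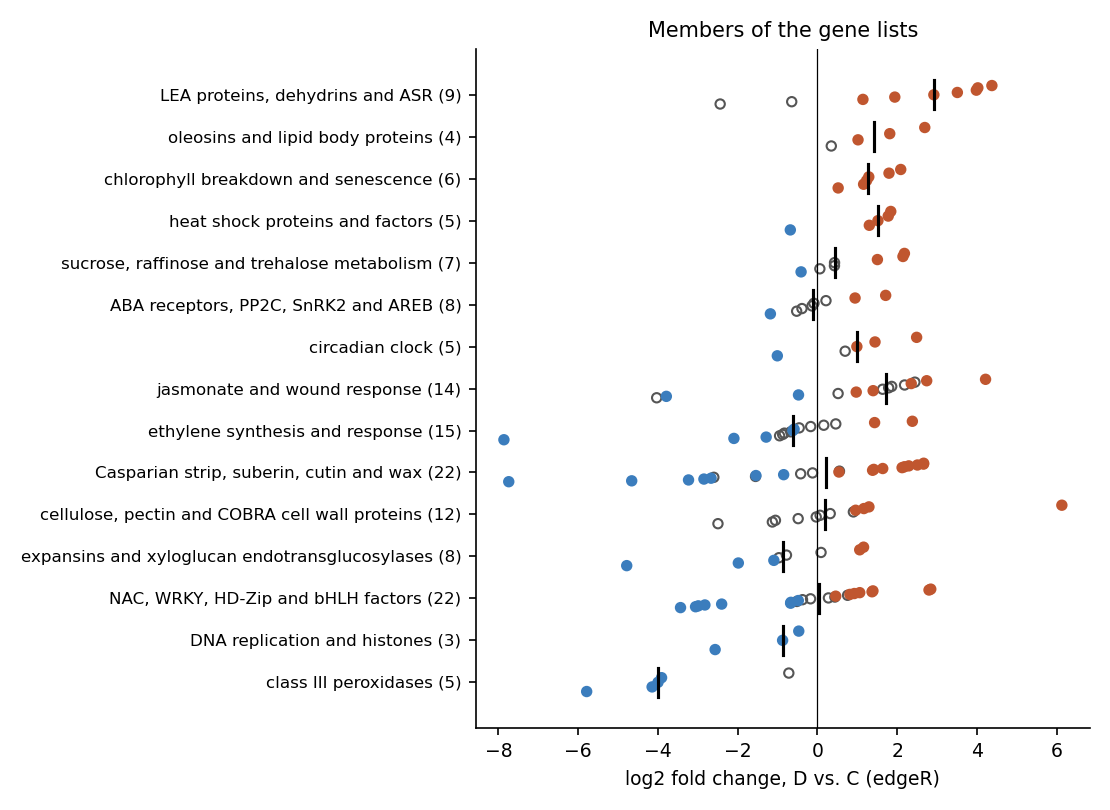
Log2 fold change between D and C (horizontal) of the members of 15 gene lists, 1 point per gene, with the number of members in parentheses. Filled points have an unadjusted edgeR p under 0.05 (red higher, blue lower in D), open points a larger p, and the black bar is the list median, which is 2.92 for LEA proteins and -4.0 for class III peroxidases. Fitted values of genes at or under 3 counts in a group depend on the prior count and are no bounds.

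Among the largest differences on the lower side, the cation channel cyclic nucleotide-gated ion channel 4 (Solyc10g006800.4.1, SL4.0 chromosome 10, 1126847 to 1133294, minus strand) had 109, 99 and 174 CPM in C and 32.9, 26.9 and 46.2 in D. All D libraries were below all C libraries, and the gene was 3.61-fold lower (-1.85 ± 0.31, edgeR adjusted p = 0.151, 0.0356 with the replicate block). A glycine-rich protein (Solyc09g097760.3.1) had 8.74, 4.05 and 51.5 CPM in C and 0.103, 0.289 and 0.217 in D, at -6.71 and -4.95 without C replicate 3. A protein kinase (Solyc08g066400.3.1) had 16.8, 20.7 and 2.99 and 0.31, 0 and 0. A gene annotated as a diaminopimelate ligase (Solyc08g081170.4.1) had 19.7, 23.8 and 33.8 CPM in C and 8.75, 7.9 and 7.93 in D (-1.65 ± 0.24). On the higher side, Oxidative stress 3 (Solyc06g066420.4.1) had 30, 26.7 and 10.9 CPM in C and 144, 179 and 130 in D (2.74 ± 0.55), and a cold-regulated protein (Solyc02g091390.3.1) had 0.383, 0.549 and 0.199 and 3.46, 1.82 and 1.71 (2.62 ± 0.56). Enhanced disease resistance 2-like (Solyc03g065200.4.1) rested on D replicate 2, with 1.65, 13.5 and 2.72 CPM in D, at 3.05 and 1.60 without it. A hydrolase of valine breakdown (Solyc01g108800.4.1) had 0.383, 0.247 and 0.0474 CPM in C and 2.84, 2.37 and 2.36 in D (3.51 ± 0.72).

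The study carried a set of genes into later experiments, and 2 of them were called neither by edgeR nor by DESeq2 at 2 d. The study chose both for their response to ultrasound. It describes drought as a neutral cue for them, without a change against the control. ARGOS (Solyc12g096570.1.1), an auxin-regulated gene of organ size, had 6.8, 5.6 and 8.72 CPM in C and 4.28, 4.43 and 2.43 in D (-0.92 ± 0.57, edgeR adjusted p = 0.573). EX (Solyc10g074540.1.1), which the study lists by identifier and annotates as EXORDIUM-like 3 in its tables but calls by another EXORDIUM-like number in its text, had 5.72, 21.1 and 2.44 CPM in C and 3.61, 4.57 and 7.35 in D (-0.91 ± 0.75, adjusted p = 0.686). The direction for EX rested on C replicate 2 and became 0.36 without it.

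The same genes were also read under drought with ultrasound. The comparisons share the D libraries, so they are set side by side. For genes picked by their difference between D and C, the choice itself favours a move back in US + D. The p-values below for such genes, the interaction included, are not free of that choice. Between US + D and D, edgeR called 27 DEGs (0.122%). At an unadjusted p under 0.05 stood 2792 genes (12.6%). The CASP-like gene had 33.5, 34.4 and 46.3 CPM in US + D and 51.7, 32.9 and 36.3 in US, and it fell from D to US + D by 1.65 ± 0.22 on the log2 scale (adjusted p = 0.0487). The cytokinin phosphoribohydrolase had 12, 7.69 and 7.3 CPM in US + D and 22.2, 7.14 and 12.1 in US (-2.40 ± 0.35, adjusted p = 0.0487). EREB had 1.14, 0.292 and 0.738 in US + D and 4.04, 2.03 and 2.29 in US (-3.89 ± 0.46, adjusted p = 0.0487). LEA gene Solyc02g085150.4.1 had 0.596, 0.906 and 0.551 CPM in US + D (-2.92 ± 0.51, adjusted p = 0.0636), TIP had 7.07, 1.64 and 15.2 (-2.30 ± 1.26, adjusted p = 0.501), and CNGC4 had 94.5, 100 and 112 (1.53 ± 0.30, adjusted p = 0.0896). Chlorophyllase had 30.5, 36.9 and 25.8 CPM in US + D and 31.9, 13.5 and 40.2 in US, and US + D differed from D by -0.15 ± 0.37 (adjusted p = 0.917). Whether the drought difference itself depended on ultrasound was tested with the interaction term of edgeR. No gene passed an adjusted p of 0.05 (smallest 0.175), while 1422 genes (6.42%) were below 0.05 before adjustment. For the CASP-like gene the interaction was -2.26 ± 0.31 on the log2 scale (adjusted p = 0.175).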

How the data were processed

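Per the labels and the methods of the study, leaf RNA was poly-A selected, sequenced in pairs, trimmed with fastp, aligned with HISAT2 to the SL4.0 genome and counted with FeatureCounts on ITAG4.0 genes. The authors deposited these values as raw counts, without normalization. Each gene's length in the table equals its whole span, introns included. Strand setting and treatment of multiply aligned reads are not given in the sources used here.

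The analysis used edgeR (4.0.16) under R (4.3.3). The 22157 genes kept by filterByExpr (99.978% of the counts) were scaled by TMM (0.874 to 1.10), and 1 quasi-likelihood model was fitted to the 12 libraries. P-values were adjusted over all tested genes by the Benjamini-Hochberg method. CPM used the scaled library sizes, and SE values of log2 fold changes are approximate (the absolute value over the root of F). A permutation test of 3 against 3 cannot go below a two-sided p of 0.1, so single genes were tested in the model. The labels call the 3 libraries of a group biological replicates, and no 2 of them agreed within sampling noise (chi-square per degree of freedom of at least 45.5). Of the tested genes, 795 overlap another gene model.

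Same-numbered C and D libraries deviated together from their group means (correlations of 0.142, 0.260 and 0.223, against at most 0.069 for different numbers). The main fit held no term for the replicate number, so its log2 fold changes, SE and p-values do not take a pairing into account. A fit with the replicate number as a block was run as an alternative and is given where it changes a call. Alternatives were RLE scaling, DESeq2 (1.42.0), quality-weighted voom (limma 3.58.1), other filters on low counts, a robust fit, the block, the C and D libraries alone, the adjusted p alone, and each C or D library left out. Chosen after seeing the data were DESeq2 with the block and all libraries thinned to 33640280 counts. Counts of 22157 genes were also simulated for 12 libraries, with genes changed in D. In D against C, edgeR called 38 of 100 genes changed by a log2 of 1.5 and 92 of 100 changed by 3. It also called 7 unchanged genes, and DESeq2 called 69, 98 and 80. The simulation gave all groups the same dispersion per gene, with no library set apart and no shared replicate effect. The real C libraries spread more than the D libraries, so these rates may not hold for them.

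Genes were named by rule, starting with the DEGs and the genes the study followed later. Another set drew on annotated genes that DESeq2 called in all 7 fits with non-overlapping libraries and a mean of at least 1 CPM. Of these, the 12 largest differences each way were named. Each list gave up to 4 members with the smallest p, which had to be under 0.05 with non-overlapping libraries. Separate C and D libraries in genes of these last 2 sets thus follow from the rule. The gene lists and this rule were chosen with earlier results of these data known. Names come from the annotation columns of the study's tables. 4 text matches of other families were removed from the lists. Lists for ABA synthesis and the Calvin cycle, and markers of mesophyll, trichomes, flowers, meristems and roots, matched no annotated gene, so the leaf label could not be checked by markers. A list of loci by identifier and a promoter search were not used here, since those loci carry no name in the sources and no sequence was at hand.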

Additional observations from a re-analysis of the deposited data

How the results depend on the processing

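The 1 DEG of edgeR was also the count with RLE scaling, no filter on low counts, a stricter filter, a robust fit, the adjusted p alone and libraries thinned to an equal total count. The number of DEGs became 2 with the replicate block, 4 with the C and D libraries alone, 224 with limma voom (4382 genes with an unadjusted p under 0.05), 424 with DESeq2, 391 with DESeq2 after thinning and 595 with DESeq2 and the replicate block. Leaving out 1 library gave 0 to 1 DEGs in edgeR, with 1514 to 2628 genes at an unadjusted p under 0.05, and in DESeq2 280, 488 and 555 DEGs without C replicates 1, 2 and 3 and 130, 101 and 267 without D replicates 1, 2 and 3. The cause of these differences between tools was not tested. The block changed the edgeR call of no other named gene than CNGC4.

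Over 91 named genes and 23 alternatives, 1496 of 2085 log2 fold changes kept their direction and side of the threshold, 581 were called only under the alternative, 6 were no longer called and 2 changed sign. Both sign changes were EX (Solyc10g074540.1.1), at 0.36 without C replicate 2 in edgeR and 0.35 in DESeq2. Over the edgeR fits without 1 library EX ranged from -1.36 to 0.36. With 3 libraries per group and a wide spread among the C libraries, a gene outside the threshold may still differ.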
